A study of Mus musculus with 18 samples.

Results

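Transforming growth factor β (TGF-β), bone morphogenetic protein (BMP) and activin signaling was followed in RNA-seq of descending aortas through 42 member genes, matched by symbol among the 54281 genes of the count table. They comprised 9 ligands, 3 latent TGF-β binding proteins, 11 receptors, 5 antagonists, 5 signal-carrying Smads and 9 Smad target and feedback genes. The mice were male and C57BL/6, with 6 in each group. The HGPS mice (genotype label LMNAG609G, 64 to 75 d old, called 2-mo) carry a knock-in mutation on both copies of Lmna that makes cells produce progerin, a truncated Lamin A. The mutation sits at the endogenous locus and so is present in every cell type of the vessel. The controls were 2-mo WT mice (62 d old, except mouse 6 at 95 d) and 24-mo WT mice (609 to 762 d old), which lack the mutation. The RNA came from the intima, media and adventitia together. Comparing HGPS and 24-mo WT aortas with 2-mo WT aortas asks which genes change with the progeria mutation and which with age, and the direct comparison of HGPS with 24-mo WT asks where both states differ.

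Ligands of this family bind pairs of type I and type II receptor kinases at the cell surface, and the receptors phosphorylate Smad proteins that enter the nucleus. TGF-β and activin receptors act mainly through Smad2 and Smad3, and BMP receptors through Smad1, Smad5 and Smad9, with Smad4 as the common partner. Secreted antagonists hold ligands away from the receptors, latent TGF-β binding proteins store TGF-β in the matrix, and inhibitory Smads and other target genes damp the signal from inside the cell. In the aorta the pathway is known for its part in smooth muscle differentiation and matrix synthesis, and defects in its receptors cause aneurysms.

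Total counts per mouse ranged from 12413229 to 30844775. Levels are given as CPM, counts relative to the library total as scaled by the TMM method, and, where genes are compared with each other, as CPM per kilobase (kb) of merged exons. A gene was tested when 6 or more mice had 10 or more counts of it, which kept 15210 genes and 40 of the 42 members. Bmp5, a BMP ligand, did not pass, at 0 to 0.176 CPM over the 18 mice. Grem1, which encodes the BMP antagonist gremlin, did not pass either, at 0 to 1.44 CPM. Differences were tested with edgeR's quasi-likelihood method and Benjamini-Hochberg adjustment over all tested genes, which gives every adjusted p below. A gene is called where that p is under 0.05. The 8 smooth muscle markers, which define the aortic media, summed to 5908 CPM or more in every mouse. Several markers of other cells moved with the HGPS group, and their values are given after the results on the genes. Whole aortas were sequenced, so fewer cells of a type and less RNA per cell cannot be told apart.

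Among the ligands, Tgfb3 had the highest level per length in 2-mo WT, at 83.7 CPM per kb, followed by Bmp4 at 23, Bmp6 at 19.5, Tgfb2 at 13.4 and Inhba at 11 CPM per kb. Bmp2, Inhbb and Tgfb1 lay between 1.36 and 2.48 CPM per kb. Among the receptors, Bmpr1a was highest at 89.5 CPM per kb and Acvr2b lowest at 0.741 CPM per kb. Fstl1 was the most abundant member in 2-mo WT, at 493 CPM per kb, and Fst, at 1.79 CPM per kb, was near the lower end. Ltbp1, at 133 CPM per kb, was far above Ltbp2 at 14.2 and Ltbp3 at 12.2 CPM per kb. These levels are group means and do not carry a test between genes.

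**Figure D1:**
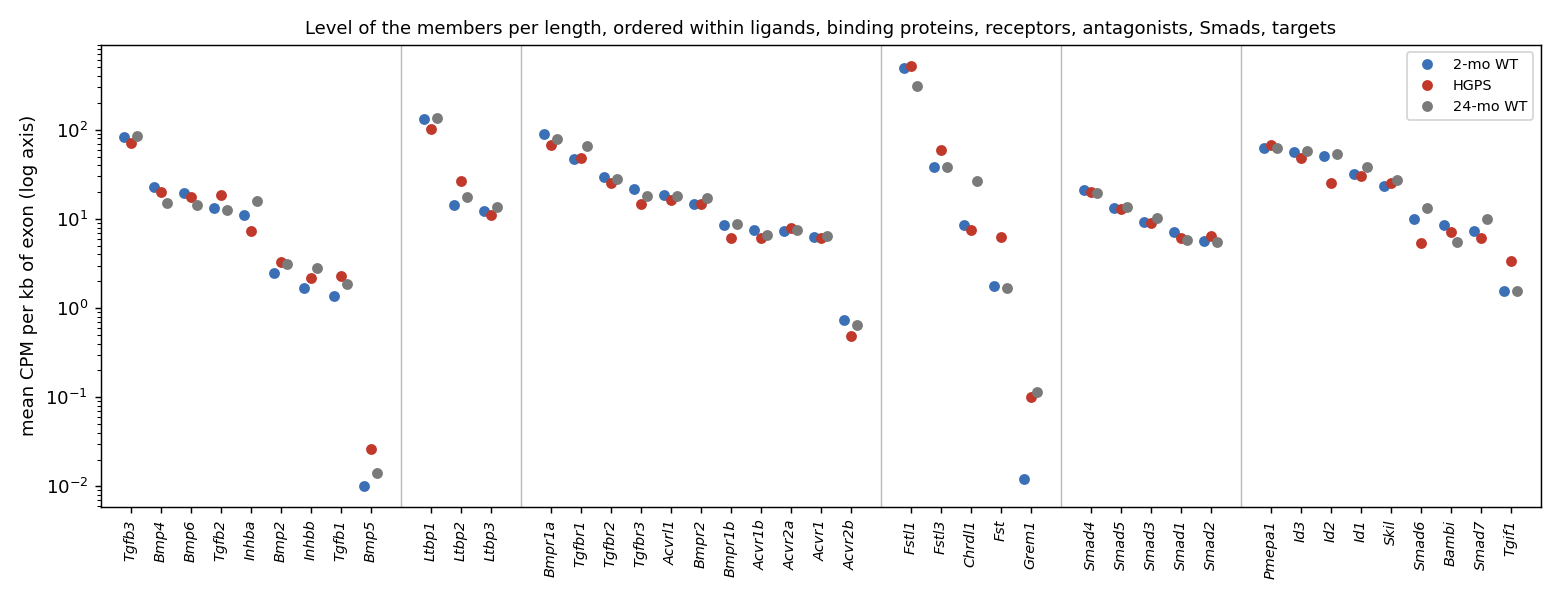
Mean level of each member in CPM per kb of exon (log axis) in 2-mo WT (blue), HGPS (red) and 24-mo WT (grey), 6 mice each, ordered within each role by the 2-mo WT level. Among the tested members, the groups differ most in mean for Fst, Chrdl1, Smad6, Inhba, Tgif1 and Id2.

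Between HGPS and 2-mo WT, 18 of the 40 tested members were called, 7 higher and 11 lower in HGPS. Of all tested genes, 43.2% were called in this comparison, 22% higher and 21.2% lower, so the share of members called was close to that of any gene. The median log2 fold change was -0.12 over the members and 0.00 over all tested genes. Under stricter cut-offs, which require adjusted p under 0.001 and at least 1.5-fold, 4 members were higher and 3 lower, beside 9.5% of all tested genes in either direction. For 8 members all HGPS mice lay above or below all 2-mo WT mice, beside 21.9% of all tested genes.

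Between 24-mo and 2-mo WT, 9 of 40 members were called, 5 higher and 4 lower at 24 mo. The share of all tested genes was 11.7%, with 6.29% higher and 5.38% lower. Only Chrdl1 and Fstl1 passed the stricter cut-offs, beside 2% of all tested genes, and 4 members did not overlap between the ages, beside 6.28% of all genes. Between HGPS and 24-mo WT, 7 members were higher and 13 lower in HGPS. In that comparison 47.3% of all tested genes were called, 23.8% higher and 23.6% lower, and 12.1% passed the stricter cut-offs, as did 9 members. The groups did not overlap for 13 members, beside 3370 of all 15210 tested genes. The comparisons share groups of mice and are therefore not independent of each other.

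**Figure D2:**
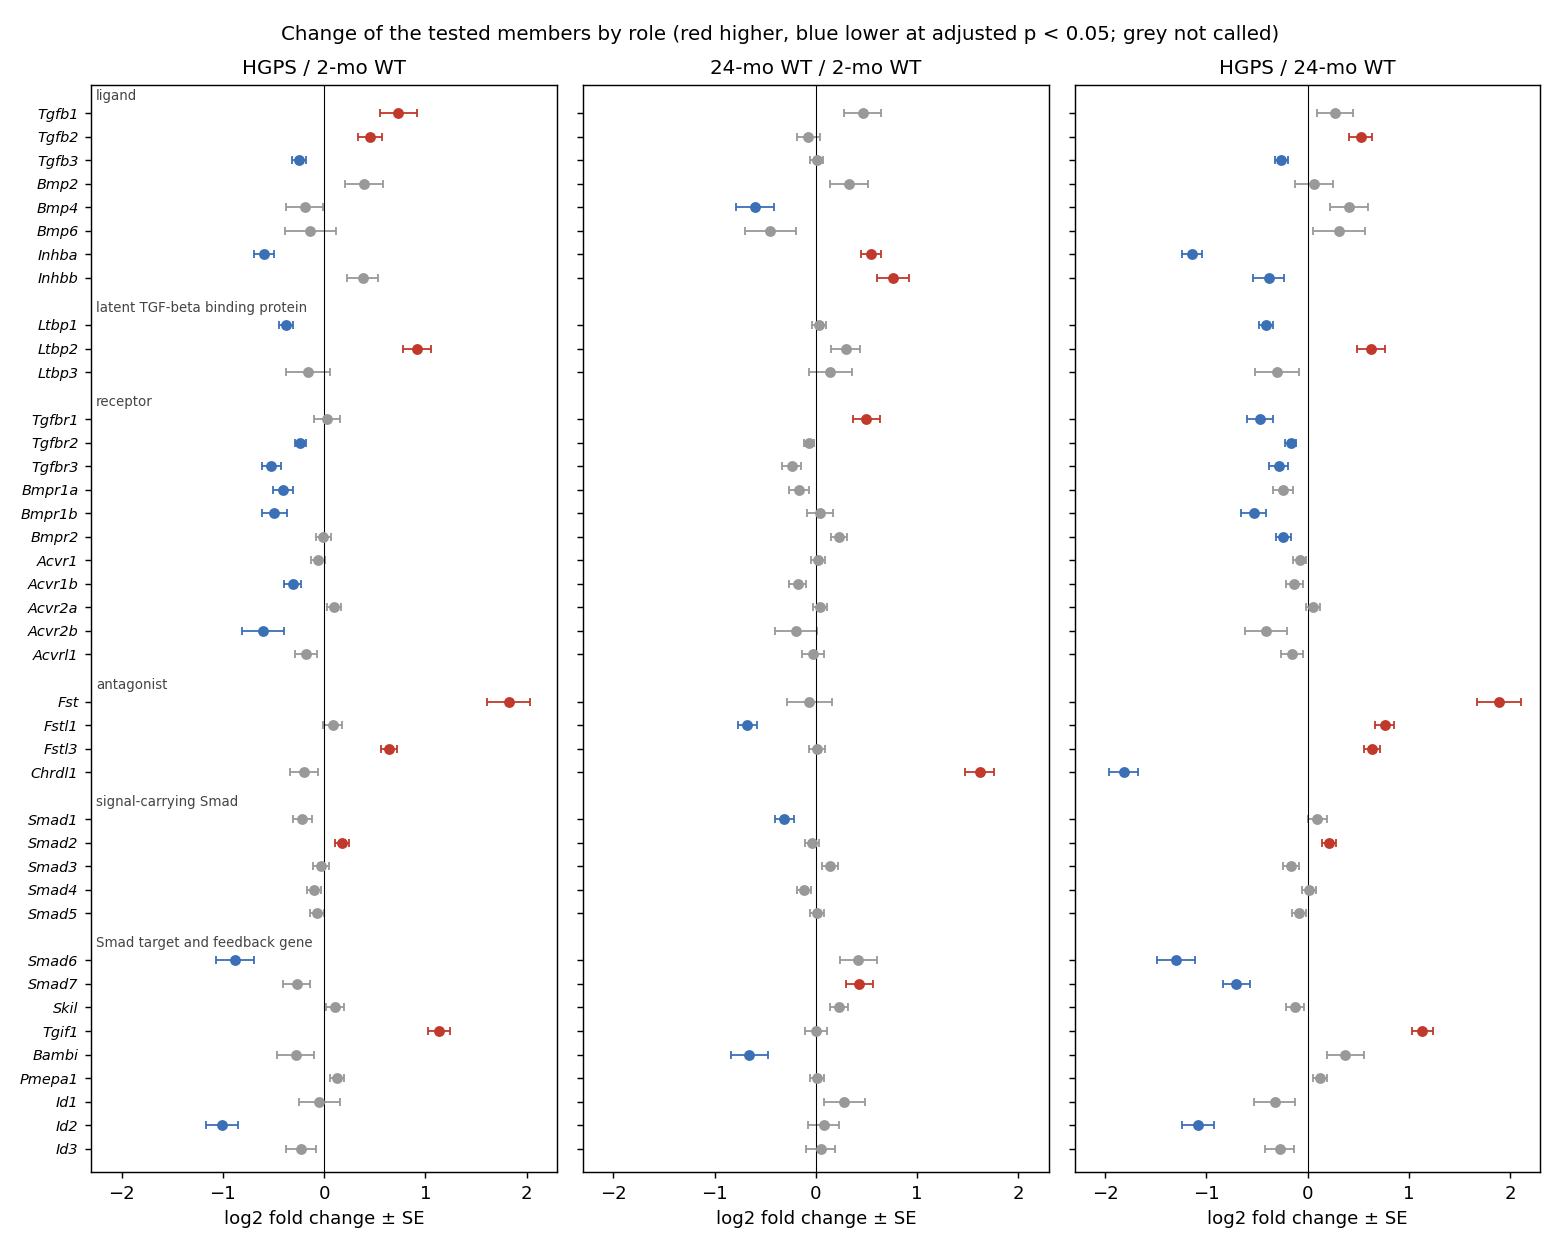
Log2 fold change ± SE of the 40 tested members, grouped by role, in HGPS against 2-mo WT, 24-mo WT against 2-mo WT and HGPS against 24-mo WT (6 mice a group). Red points are called higher, blue points called lower and grey points not called at adjusted p under 0.05. No receptor is red in the first panel, and the points farthest from 0 are Fst in the first panel and Chrdl1 in the second.

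Of the 8 tested ligands, Tgfb1 and Tgfb2 rose and Tgfb3 and Inhba fell in HGPS against 2-mo WT. Inhba encodes the βA subunit of activin A. It ranged from 58.7 to 76.2 CPM (median 73.7) in 2-mo WT, from 40.2 to 53.9 CPM (median 45.3) in HGPS and from 88.1 to 124 CPM (median 94.3) in 24-mo WT. All 3 groups were apart, with HGPS lowest and 24-mo WT highest. The log2 fold change was -0.60 (SE 0.10, adjusted p = 0.000111) in HGPS and 0.54 (SE 0.10, adjusted p = 0.00103) at 24 mo. Set directly against 24-mo WT, HGPS was lower by a log2 fold change of -1.14 (SE 0.10, adjusted p = 4.59e-08). Inhbb, the βB activin subunit, ranged from 4.86 to 9 CPM (median 7.60) in 2-mo WT, 8.40 to 10.9 CPM (median 9.18) in HGPS and 8.42 to 15.8 CPM (median 11.7) in 24-mo WT. The groups overlapped. It rose at 24 mo (log2 fold change 0.76, SE 0.16, adjusted p = 0.00296), and its value in HGPS against 2-mo WT was 0.38 (SE 0.16, adjusted p = 0.0575). HGPS was lower than 24-mo WT by -0.38 (SE 0.15, adjusted p = 0.0471), a call that was lost without any one of 9 mice (HGPS 1, 2, 4, 5 or 6, or 24-mo WT 1, 4, 5 or 6), at log2 fold changes of -0.40 to -0.29.

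The TGF-β isoforms did not move as a group. Tgfb1, the isoform best known from injury and inflammation, ranged from 4.77 to 8.94 CPM (median 7.02) in 2-mo WT, 7.75 to 13.5 CPM (median 12.5) in HGPS and 6.83 to 13.8 CPM (median 8.79) in 24-mo WT. HGPS lay higher with some overlap, and 24-mo WT lay between. In HGPS the change was 0.73 on the log2 scale (SE 0.18, adjusted p = 0.00319), against 0.46 (SE 0.18, adjusted p = 0.113) at 24 mo. The call in HGPS was lost with brown fat and skeletal muscle scores in the model (0.45, SE 0.28, adjusted p = 0.278). It was also lost without the 4 HGPS mice of highest brown fat score (0.31, SE 0.24, adjusted p = 0.422), a setting that left only 2 HGPS mice. Tgfb2 ranged from 61.0 to 107 CPM in 2-mo WT, 95.5 to 121 CPM in HGPS and 64.2 to 84.8 CPM in 24-mo WT. HGPS was above both WT groups, by 0.45 (SE 0.11, adjusted p = 0.00349) over 2-mo WT with overlap and by 0.53 (SE 0.11, adjusted p = 0.000914) over 24-mo WT without overlap. The overlap came from the 95-d 2-mo WT mouse 6 alone, at 107 CPM. Tgfb3, the most abundant of the isoforms, had means of 283 ± 25.9 CPM in 2-mo WT, 238 ± 12 CPM in HGPS and 285 ± 20.3 CPM in 24-mo WT (SD, n = 6). It fell in HGPS by 0.25 on the log2 scale against 2-mo WT (adjusted p = 0.00559).

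Among the member BMP ligands, Bmp4 alone had a call. It ranged from 31.6 to 71.4 CPM (median 51.9) in 2-mo WT, 38.0 to 61.0 CPM (median 43.6) in HGPS and 22.6 to 43 CPM (median 36.1) in 24-mo WT, with overlap between all groups. The log2 fold change at 24 mo was -0.60 (SE 0.19, adjusted p = 0.0424). That call was lost without any one of 7 mice (2-mo WT 1, 3, 4 or 5, or 24-mo WT 1, 4 or 5), at log2 fold changes of -0.61 to -0.48. Endothelial scores, the mean log2 CPM of the endothelial markers, were 5.009, 4.883 and 5.156 in 24-mo WT mice 1, 4 and 5. Their Bmp4 levels were 22.6, 24.6 and 31.7 CPM. Mice 2, 3 and 6 of that group scored 5.733, 5.735 and 5.798, at 40.5, 42.5 and 43 CPM of Bmp4. The part of endothelial RNA in the Bmp4 change with age was not tested. Bmp2 and Bmp6 were not called in any comparison, with log2 fold changes between -0.45 and 0.39.

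The 3 latent TGF-β binding proteins, large matrix proteins of the fibrillin family, differed in direction in HGPS. Ltbp2, which unlike its relatives does not bind latent TGF-β, ranged from 97.0 to 131 CPM (median 118) in 2-mo WT, 161 to 295 CPM (median 219) in HGPS and 117 to 181 CPM (median 138) in 24-mo WT. Every HGPS mouse was above every 2-mo WT mouse. Ltbp2 was higher by a log2 fold change of 0.92 (SE 0.14, adjusted p = 4.83e-05) against 2-mo WT and 0.62 (SE 0.14, adjusted p = 0.00121) against 24-mo WT. With scores for brown fat and skeletal muscle in the model, the first value was 0.58 (adjusted p = 0.0177). Without the 4 HGPS mice of highest brown fat score, which left only 2, the values were 0.53 (adjusted p = 0.0238) and 0.24 (adjusted p = 0.252). Ltbp1, the most abundant of the 3, fell from 1426 ± 132 CPM in 2-mo WT to 1100 ± 88.9 CPM in HGPS (SD, n = 6; log2 fold change -0.37, SE 0.07, adjusted p = 0.000329), and was 1460 ± 78.1 CPM in 24-mo WT. Ltbp3 was not called. One 24-mo WT mouse had 248 CPM of Ltbp3 where the other 5 had at most 133 CPM.

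No member receptor was called higher in HGPS than in 2-mo WT and 6 of 11 fell, all by less than the 1.5-fold mark except Acvr2b, beside 21.2% of all tested genes called lower. Acvr2b, a type II receptor for activins, ranged from 1.82 to 3.98 CPM (median 2.90) in 2-mo WT, 1.5 to 2.21 CPM (median 2.00) in HGPS and 1.97 to 3.52 CPM (median 2.07) in 24-mo WT. These low values overlapped between groups. The log2 fold change in HGPS was -0.61 (SE 0.21, adjusted p = 0.0235), and the call was lost without HGPS mouse 4 or 6 or 2-mo WT mouse 4, at -0.56 to -0.50. Tgfbr3 encodes betaglycan, a co-receptor that presents TGF-β2 and inhibin. It ranged from 119 to 158 CPM in 2-mo WT and 84.5 to 107 CPM in HGPS, without overlap, and fell by 0.52 on the log2 scale (SE 0.09, adjusted p = 0.000243). Tgfbr2, the type II receptor for TGF-β, ranged from 225 to 266 CPM in 2-mo WT and 201 to 214 CPM in HGPS, again without overlap, a small fall of 0.23 (SE 0.05, adjusted p = 0.00113). Bmpr1b, a type I BMP receptor, was also apart, at 43.9 to 63.5 CPM in 2-mo WT and 26.4 to 42.9 CPM in HGPS, and fell by 0.49 (SE 0.12, adjusted p = 0.00369). Bmpr1a, its more abundant relative, fell by 0.41 (SE 0.10, adjusted p = 0.00254) and Acvr1b, the activin type I receptor, by 0.31 (SE 0.08, adjusted p = 0.00534), both with overlap. Of these 6 falls, that of Tgfbr3 alone was also called with scores of fat and muscle markers in the model. In that fit the log2 fold changes of Tgfbr2 (-0.18), Bmpr1a (-0.28), Bmpr1b (-0.18) and Acvr1b (-0.16) were smaller, and that of Acvr2b (-0.72) was larger. The SEs were also larger there, at 0.07 for Tgfbr2 and 0.31 for Acvr2b, so a lost call is not by itself a smaller fall. Acvr1c, a type I receptor for activins and related ligands that is abundant in fat, is not a member and was named after its values were seen. HGPS mice had more of it than 2-mo WT mice, with overlap (log2 fold change 1.38, SE 0.37, adjusted p = 0.00541).

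The other receptors, Tgfbr1, Bmpr2, Acvr1, Acvr2a and Acvrl1, were not called between HGPS and 2-mo WT, with log2 fold changes between -0.18 and 0.10. Tgfbr1, the type I receptor for TGF-β, was the only receptor called between the WT ages. It ranged from 241 to 376 CPM (median 301) in 2-mo WT, 251 to 361 CPM (median 315) in HGPS and 311 to 584 CPM (median 417) in 24-mo WT. The 24-mo mice lay highest with overlap, and the log2 fold change at 24 mo was 0.50 (SE 0.13, adjusted p = 0.0142). Against 24-mo WT, HGPS was called lower for Tgfbr1, Tgfbr2, Tgfbr3, Bmpr1b and Bmpr2. The Tgfbr3 call there (-0.28, adjusted p = 0.0191) was lost without HGPS mouse 3 or 24-mo WT mouse 1, at -0.24 to -0.21.

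Against 2-mo WT, the largest log2 fold changes of the members were those of the secreted antagonists Fst in HGPS and Chrdl1 at 24 mo, both rises. The antagonist Fstl3 also rose in HGPS, by less than Tgif1, Ltbp2 or Tgfb1. Fstl1 fell at 24 mo, by less than Inhbb rose. Fst encodes follistatin, which binds activins almost irreversibly and also some BMPs. The Fst gene lies on chromosome 13 (GRCm38 114452290 to 114458951, minus strand). It ranged from 5.94 to 10.2 CPM (median 8.19) in 2-mo WT, 17.1 to 39.5 CPM (median 28.3) in HGPS and 5.36 to 12.8 CPM (median 7.27) in 24-mo WT. Every HGPS mouse was above every WT mouse of either age, and the WT ages overlapped. Fst was 3.54-fold higher in HGPS than in 2-mo WT (log2 fold change 1.82, SE 0.22, adjusted p = 3.41e-06) and 3.70-fold higher than in 24-mo WT (1.89, SE 0.22, adjusted p = 1.25e-06). Its log2 fold change with age was -0.07 (SE 0.22, adjusted p = 0.892).

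Fstl3 encodes a follistatin-like protein that also binds activin and myostatin. It ranged from 84.4 to 102 CPM (median 93.5) in 2-mo WT, 126 to 178 CPM (median 144) in HGPS and 87.0 to 107 CPM (median 90.0) in 24-mo WT. HGPS mice were again above all WT mice. The log2 fold change was 0.64 (SE 0.08, adjusted p = 4.81e-06) against 2-mo WT and 0.63 (SE 0.08, adjusted p = 3.14e-06) against 24-mo WT, and 0.01 (adjusted p = 0.963) between the WT ages. In the same HGPS mice, then, activin subunit Inhba was below and its binding proteins Fst and Fstl3 were above the range of 2-mo WT.

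Chrdl1 encodes chordin-like 1, a secreted BMP antagonist. It ranged from 46.1 to 67.7 CPM (median 61.4) in 2-mo WT, 36.3 to 64.1 CPM (median 49.5) in HGPS and 129 to 215 CPM (median 182) in 24-mo WT. Every 24-mo mouse was above every 2-mo mouse of either genotype. The rise with age was 3.07-fold (log2 fold change 1.62, SE 0.14, adjusted p = 2.53e-07), and HGPS lay below 24-mo WT by -1.82 (SE 0.14, adjusted p = 1.20e-08). Fstl1, a secreted glycoprotein with a follistatin-like domain that is known to bind BMP4, ranged from 2241 to 2606 CPM (median 2427) in 2-mo WT, 2078 to 3122 CPM (median 2538) in HGPS and 1400 to 1734 CPM (median 1491) in 24-mo WT. All 24-mo mice were below all other mice. It fell with age by 0.68 on the log2 scale (SE 0.09, adjusted p = 6.92e-05), and HGPS was higher than 24-mo WT by 0.76 (SE 0.09, adjusted p = 3.21e-06). HGPS against 2-mo WT gave -0.20 (adjusted p = 0.263) for Chrdl1 and 0.09 (adjusted p = 0.488) for Fstl1. HGPS and 24-mo WT thus differed at the 4 tested member antagonists, with Fst, Fstl1 and Fstl3 higher and Chrdl1 lower in HGPS. Of all tested genes, 47.3% were called in that comparison.

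**Figure D3:**
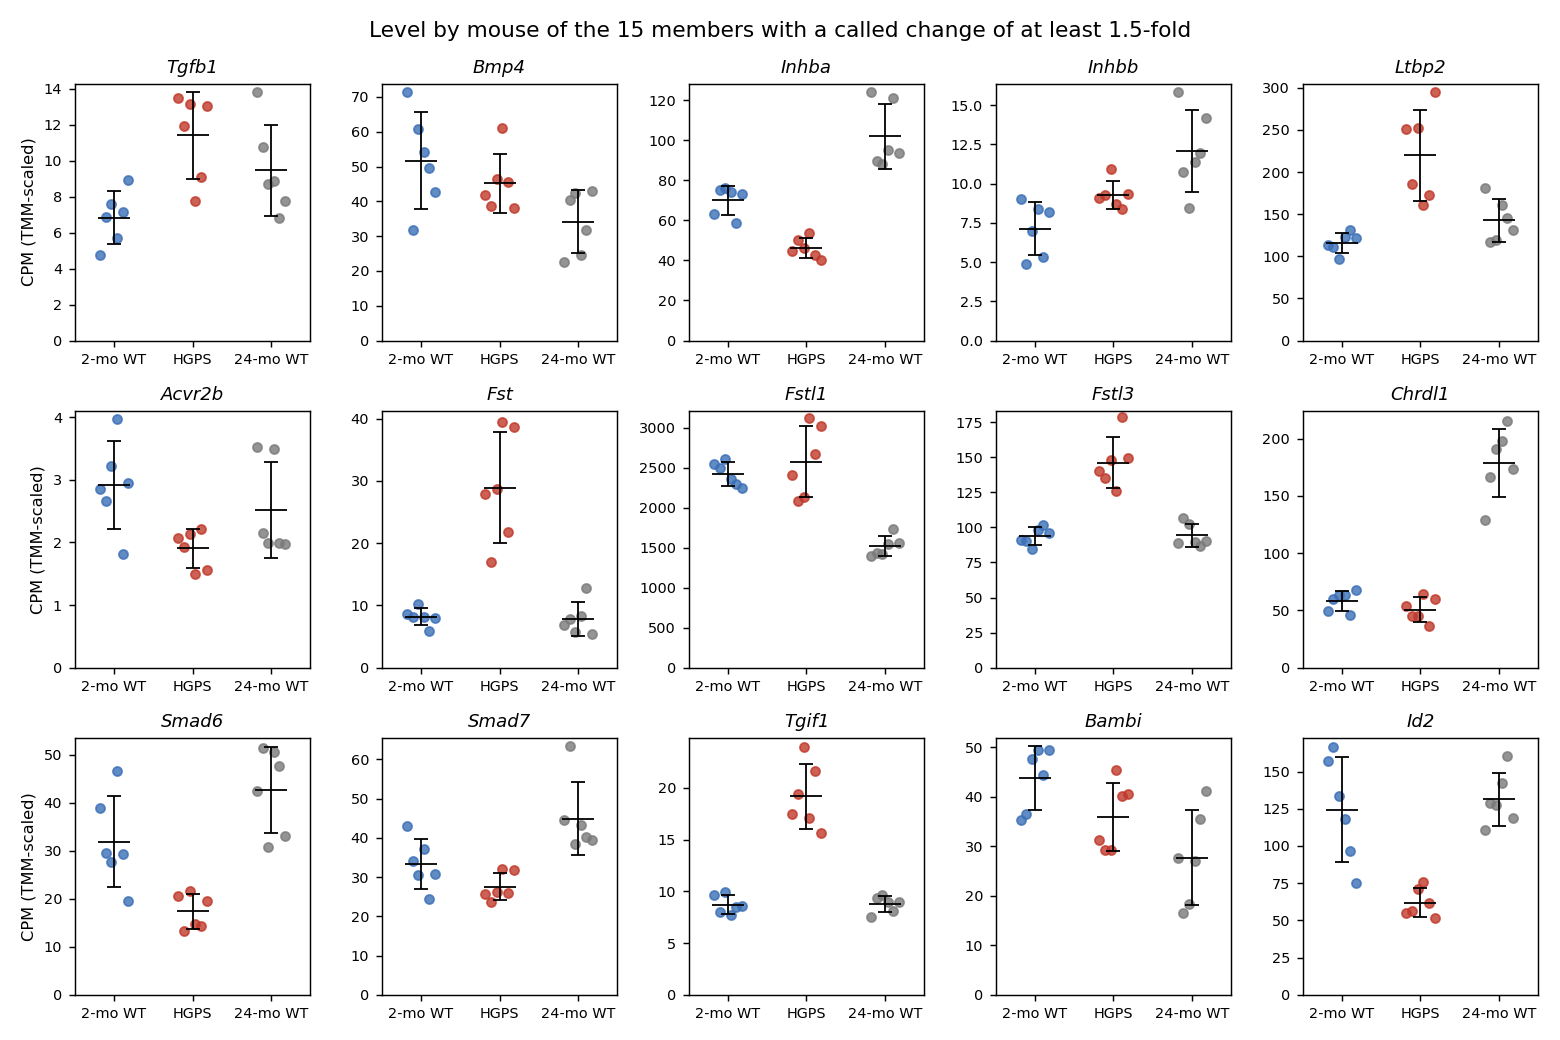
Level in each mouse (points, TMM-scaled CPM on linear axes from 0) with mean and SD (n = 6) of the 15 members called with at least a 1.5-fold change in some comparison. HGPS mice stand alone at the top for Fst, Fstl3 and Tgif1 and at the bottom for Inhba, and 24-mo WT mice stand alone at the top for Chrdl1 and at the bottom for Fstl1.

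The member Smads that carry the signal had log2 fold changes between -0.31 and 0.21 in the 3 comparisons. Of Smad1, Smad2, Smad3, Smad4 and Smad5, Smad2 alone was called in HGPS against 2-mo WT. It rose from 49.8 ± 2.70 CPM to 56.2 ± 5.72 CPM (SD, n = 6; log2 fold change 0.18, SE 0.07, adjusted p = 0.0406). The call was lost without any one of 7 mice (HGPS 2, 4 or 5, or 2-mo WT 3, 4, 5 or 6), at 0.12 to 0.18. Smad1, which carries BMP signals, ranged from 40.5 to 51.8 CPM in 2-mo WT and 30.9 to 39.3 CPM in 24-mo WT. The ages were apart, and the log2 fold change at 24 mo was -0.31 (SE 0.09, adjusted p = 0.0331). That call was lost without any one of 7 mice (2-mo WT 4, 5 or 6, or 24-mo WT 1, 3, 4 or 5), at -0.31 to -0.26. Smad3, Smad4 and Smad5 were not called in any comparison, with log2 fold changes between -0.17 and 0.14.

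Of the 9 Smad target and feedback genes, Tgif1 rose and Smad6 and Id2 fell in HGPS against 2-mo WT. Tgif1 encodes a homeodomain protein that binds Smad2 and Smad3 and represses transcription. It ranged from 7.71 to 9.92 CPM (median 8.54) in 2-mo WT, 15.7 to 24.0 CPM (median 18.4) in HGPS and 7.5 to 9.61 CPM (median 9) in 24-mo WT. HGPS mice were above all WT mice, and the WT ages overlapped. Tgif1 was 2.20-fold higher in HGPS than in 2-mo WT (log2 fold change 1.14, SE 0.10, adjusted p = 2.25e-07) and 2.19-fold higher than in 24-mo WT (1.13, SE 0.10, adjusted p = 8.65e-08).

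Smad6 encodes the inhibitory Smad that acts mainly on BMP signals and is itself induced by them. It ranged from 19.6 to 46.7 CPM (median 29.4) in 2-mo WT, 13.2 to 21.6 CPM (median 17.2) in HGPS and 30.8 to 51.3 CPM (median 45.1) in 24-mo WT. HGPS overlapped with 2-mo WT only at the lowest mouse of 2-mo WT, the 95-d mouse 6, and was apart from 24-mo WT. Smad6 changed by a log2 fold change of -0.88 (SE 0.19, adjusted p = 0.000906) against 2-mo WT and -1.30 (SE 0.19, adjusted p = 1.54e-05) against 24-mo WT. Id2, one of the Id genes that BMP signaling is known to induce and that inhibit differentiation factors, ranged from 75.0 to 167 CPM (median 126) in 2-mo WT, 51.5 to 75.8 CPM (median 58.9) in HGPS and 111 to 160 CPM (median 128) in 24-mo WT. A single HGPS mouse reached just above the lowest 2-mo WT mouse, again mouse 6, and HGPS was apart from 24-mo WT. Id2 was lower by a log2 fold change of -1.01 (SE 0.16, adjusted p = 5.94e-05) and of -1.08 (SE 0.16, adjusted p = 1.87e-05) in the 2 comparisons.

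The member genes Id1 and Id3 were not called in HGPS against either WT group. Id1 ranged from 30.5 to 42.1 CPM in 2-mo WT and 18.9 to 45 CPM in HGPS (log2 fold change -0.05, SE 0.20, adjusted p = 0.879). Id3 ranged from 83.3 to 126 CPM in 2-mo WT and 60.2 to 111 CPM in HGPS (log2 fold change -0.23, SE 0.14, adjusted p = 0.218). Id4, which is not a member and was named after its values were seen, was called lower in HGPS than in 2-mo WT (-0.65, SE 0.14, adjusted p = 0.00103) and than in 24-mo WT (-0.91, SE 0.14, adjusted p = 3.17e-05). The differences between the Id genes were not tested.

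The remaining targets were Smad7, Bambi, Skil and Pmepa1. Smad7, the inhibitory Smad of TGF-β and BMP receptors, ranged from 24.4 to 43 CPM (median 32.3) in 2-mo WT, 23.7 to 32 CPM (median 26.1) in HGPS and 38.4 to 63.5 CPM (median 41.8) in 24-mo WT. HGPS was apart from 24-mo WT (log2 fold change -0.70, SE 0.13, adjusted p = 0.000245). The rise with age was 0.43 (SE 0.13, adjusted p = 0.0387), a call that was lost without any one of 7 mice (2-mo WT 2, 3, 5 or 6, or 24-mo WT 1, 2 or 4), at 0.31 to 0.44. Bambi, a pseudoreceptor that blocks TGF-β family signals, ranged from 35.3 to 49.5 CPM (median 46) in 2-mo WT, 29.2 to 45.4 CPM (median 35.7) in HGPS and 16.6 to 41.2 CPM (median 27.4) in 24-mo WT. Its levels overlapped between all groups. It fell with age by 0.66 on the log2 scale (SE 0.18, adjusted p = 0.0252), and this call was lost without 2-mo WT mouse 3 or 4 or 24-mo WT mouse 3, at -0.63 to -0.56. Skil and Pmepa1, feedback inhibitors of TGF-β signaling, were not called in any comparison, with log2 fold changes between -0.12 and 0.23.

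Promoter sequences are shown for Smad6 and Id2, the targets that fell in HGPS, for Id3, which was not called, and for Tgif1, which rose. Each window runs from 250 bases before to 50 bases after an annotated start, 5′ to 3′ on the strand of the gene, from RefSeq on GRCm38.p6. The windows are chr9:64022010-64022309 (minus) for Smad6, chr12:25096043-25096342 (minus) for Id2, chr4:136143572-136143871 (plus) for Id3 and chr17:70853483-70853782 (minus) for Tgif1. Capitals mark 3 short motifs searched on both strands, the palindromic Smad-binding element GTCTAGAC, the GC-rich element GGCGCC of BMP-responsive genes and the Smad-binding word CAGACA, which do not overlap in these windows.
Smad6: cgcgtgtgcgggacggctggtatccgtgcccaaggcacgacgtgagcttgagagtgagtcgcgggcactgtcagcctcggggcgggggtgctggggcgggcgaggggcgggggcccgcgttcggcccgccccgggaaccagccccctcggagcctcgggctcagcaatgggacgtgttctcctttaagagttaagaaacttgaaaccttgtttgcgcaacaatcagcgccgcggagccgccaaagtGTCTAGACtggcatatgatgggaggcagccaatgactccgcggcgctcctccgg
Id2: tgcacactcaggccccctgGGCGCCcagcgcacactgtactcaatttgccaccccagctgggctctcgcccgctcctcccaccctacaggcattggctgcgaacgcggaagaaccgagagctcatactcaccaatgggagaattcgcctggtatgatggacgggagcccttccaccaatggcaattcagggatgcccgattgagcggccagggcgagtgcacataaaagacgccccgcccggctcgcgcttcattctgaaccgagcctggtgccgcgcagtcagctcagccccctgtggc
Id3: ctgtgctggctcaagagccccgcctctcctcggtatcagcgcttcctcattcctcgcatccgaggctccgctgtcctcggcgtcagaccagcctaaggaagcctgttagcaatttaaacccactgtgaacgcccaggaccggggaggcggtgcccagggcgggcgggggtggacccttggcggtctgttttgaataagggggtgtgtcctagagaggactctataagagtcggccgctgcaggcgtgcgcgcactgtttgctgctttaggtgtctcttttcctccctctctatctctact
Tgif1: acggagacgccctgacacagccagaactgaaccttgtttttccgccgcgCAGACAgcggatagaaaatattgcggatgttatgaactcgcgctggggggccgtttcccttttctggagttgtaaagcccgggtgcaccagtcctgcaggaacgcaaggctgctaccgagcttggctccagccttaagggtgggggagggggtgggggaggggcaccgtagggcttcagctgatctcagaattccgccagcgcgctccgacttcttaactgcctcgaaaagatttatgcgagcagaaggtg
Some genes have several annotated starts (5 windows for Tgif1). For each of 29 members, the window nearest the start of the annotated gene was searched. The other members, among them Smad2, Smad4, Smad7 and Bambi, were not searched, so motifs in their promoters were not tested. GTCTAGAC stood in 1 of the 29 members searched, in Smad6, where it begins 4 bases before the annotated start. It occurred in 0.213% of all 32851 promoter windows, a share that counts every window of each gene. GGCGCC stood in 7 members, among them Id2, where it begins 231 bases before the start, and in 11.9% of all windows. CAGACA stood in 6 members, among them Tgif1, where it begins 201 bases before the start, and in 21% of all windows. Id3 held none of the 3 motifs in its window. Such matches describe the letters and carry no measurement of binding.

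Of 60 other pathway genes listed beside the members, 38 passed the count filter. Between HGPS and 2-mo WT 10 were called higher and 10 lower, beside 43.2% of all tested genes in either direction, and between the WT ages 3 higher and 3 lower, beside 11.7%. Gdf15, a distant family member known as a stress-induced cytokine, ranged from 0.349 to 0.620 CPM in 2-mo WT, 2.81 to 8.81 CPM in HGPS and 0.270 to 0.713 CPM in 24-mo WT. It was 14.1-fold higher in HGPS than in 2-mo WT (log2 fold change 3.82, SE 0.28, adjusted p = 2.38e-08), and the lowest HGPS mouse was above every WT mouse. Against 24-mo WT the difference was 11.4-fold (adjusted p = 1.34e-08). Smad9, a BMP-activated Smad and also a known target of BMP signals, ranged from 17.7 to 28 CPM in 2-mo WT, 8.51 to 12.6 CPM in HGPS and 24.6 to 38.4 CPM in 24-mo WT. HGPS was apart from both WT groups, with log2 fold changes of -1.11 (SE 0.12, adjusted p = 1.90e-06) and -1.54 (SE 0.12, adjusted p = 1.74e-08).

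Bmper, which encodes a secreted modulator of BMPs, rose in HGPS by a log2 fold change of 1.17 (SE 0.23, adjusted p = 0.000445), and Nrros, which holds latent TGF-β on macrophages and microglia, by 0.84 (SE 0.14, adjusted p = 0.000121). Ltbp4 fell by 0.91 on the log2 scale (SE 0.17, adjusted p = 0.000260). With age, the ligand Bmp3 rose by 1.11 (SE 0.14, adjusted p = 2.07e-05). Sost, which encodes sclerostin, a Wnt inhibitor related to the BMP antagonists, was lower in HGPS than in 24-mo WT by -0.97 (SE 0.07, adjusted p = 8.48e-09). Against 2-mo WT, Sost (-0.78, SE 0.07, adjusted p = 2.84e-07) and the BMP antagonist Chrd (-0.68, SE 0.10, adjusted p = 2.66e-05), named after its values were seen, were also lower in HGPS, both without overlap. Between HGPS and 24-mo WT, Bmper (1.38) was called higher and Ltbp4 (-0.99) lower in HGPS, as log2 fold changes past the stricter cut-offs.

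Of 17 listed genes known to respond to the pathway, 16 were tested, with 2 higher and 6 lower in HGPS against 2-mo WT, beside 43.2% of all tested genes, and 2 higher and 3 lower at 24 mo, beside 11.7%. Smad9 stands on this list and on that of the other pathway genes. Tgfbi, which encodes a matrix protein named for its induction by TGF-β, fell from 506 ± 58.2 CPM in 2-mo WT to 231 ± 40.1 CPM in HGPS (SD, n = 6; log2 fold change -1.13, SE 0.11, adjusted p = 5.78e-07) with no overlap. Thbs1, which encodes the TGF-β activator thrombospondin-1 and was named after its values were seen, rose from 196 ± 85.3 CPM to 520 ± 135 CPM (SD, n = 6; log2 fold change 1.41, SE 0.32, adjusted p = 0.00145), with overlap. At 24 mo, Fn1, which encodes fibronectin, rose by 0.84 (SE 0.14, adjusted p = 0.000355) and the collagen gene Col1a2 fell by 0.95 (SE 0.14, adjusted p = 0.000142). Many of these genes also answer to other signals, and the list includes markers of contractile smooth muscle.

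Markers of several cell types moved with the HGPS group and so with the members called there. All 10 brown fat markers were called higher in HGPS than in 2-mo WT, with summed levels of 515 to 1901 CPM against 115 to 691 CPM, and 134 to 458 CPM in 24-mo WT. Of the smooth muscle markers 6 of 8 were lower, at 5908 to 8417 CPM against 12040 to 14800 CPM, and of the fibroblast markers 6 of 8, at 3891 to 5052 CPM against 6315 to 7221 CPM. These sums weigh abundant genes most, such as Myh11 (3411 to 5276 against 8265 to 10380 CPM) and Gsn (1518 to 1922 against 2585 to 3071 CPM). Log2 fold changes of single markers ran from -1.18 to 0.09 (median -0.68) for smooth muscle and from -0.75 to 0.20 (median -0.62) for fibroblasts. All 8 macrophage markers were higher, at 851 to 1372 CPM against 451 to 697 CPM, and all 7 cell cycle genes, at 32.3 to 57.6 CPM against 9.33 to 16.6 CPM. Of the 9 endothelial markers 1 was higher and none lower, with sums of 976 to 1320 CPM in HGPS and 618 to 1483 CPM in 2-mo WT. No marker was at 0 in all mice of a group. Of the 8 white fat markers 6 were higher and 1 lower, at 1452 to 4014 CPM against 1085 to 1872 CPM, and of 5 tested nerve markers 2 were higher and 2 lower. Between the WT ages, 4 of 8 fibroblast markers were lower at 24 mo, at 5379 to 6908 CPM, while no brown fat, endothelial or macrophage marker was called. The part of smooth muscle, fibroblast, endothelial, macrophage and cell cycle markers in the changes of the members was not tested.

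For brown fat and skeletal muscle, scores were entered in the model. The 8 skeletal muscle markers summed to only 3.82 to 7.18 CPM in HGPS, 4.21 to 5.52 CPM in 2-mo WT and 6.24 to 9.65 CPM in 24-mo WT. Of the 4 that were tested and make up the score, 1 was higher and 1 lower in HGPS than in 2-mo WT, so this score rests on a few genes at low counts. The brown fat score ran from 4.50 to 6.49 in HGPS and from 1.21 to 4.94 in 2-mo WT, and so largely followed the group. A lost call in the fit with the scores can therefore come from a larger SE as well as from a smaller change. The share of all tested genes called was not computed for this fit or for the one that leaves out HGPS mice. When scores of the brown fat and skeletal muscle markers entered the model, 10 members were called between HGPS and 2-mo WT, of which 9 were among the 18 called without the scores. The other was Tgfbr1, higher in HGPS by 0.44 (adjusted p = 0.0332) with the scores and by 0.03 (adjusted p = 0.863) without them. Fst (log2 fold change 2.06), Fstl3 (0.72), Tgif1 (1.09), Ltbp2 (0.58), Tgfb2 (0.65), Inhba (-0.52), Tgfbr3 (-0.57), Smad6 (-0.96) and Id2 (-1.05) were called in both fits. Of those without a call in the fit with scores, Tgfb1, Tgfb3 (-0.11), Ltbp1 (-0.25), Tgfbr2 (-0.18), Bmpr1a (-0.28), Bmpr1b (-0.18) and Acvr1b (-0.16) had smaller log2 fold changes than without the scores. Acvr2b (-0.72) and Smad2 (0.25) had larger ones and lost the call at adjusted p = 0.103 and 0.0729. Between the WT ages, Chrdl1 (1.63), Fstl1 (-0.68), Inhba (0.64) and Tgfbr1 (0.72) were called in both fits, while 5 calls were lost in the fit with scores. There Smad7 (0.50) and Bambi (-0.80) had larger log2 fold changes than without the scores, Smad1 (-0.31) the same value to 2 decimals, and Inhbb (0.61) and Bmp4 (-0.44) smaller ones. Between HGPS and 24-mo WT, 12 of 20 calls were made in both fits, and 8 were made without the scores only. Of these, Tgfb3 (-0.10 with the scores), Tgfbr1 (-0.27), Tgfbr2 (-0.09), Bmpr1b (-0.31) and Bmpr2 (-0.20) had smaller log2 fold changes with the scores, and Inhbb (-0.39), Tgfbr3 (-0.34) and Smad2 (0.29) did not. Leaving out the 4 HGPS mice whose brown fat score was above that of every WT mouse, an alternative chosen after the data were seen, left 2 HGPS mice and 10 called members against 2-mo WT. All 10 were among the 18, and Fst (1.91), Tgif1 (1.15), Fstl3 (0.71), Smad6 (-1.11), Id2 (-0.85) and Inhba (-0.53) were among them.

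**Figure D4:**
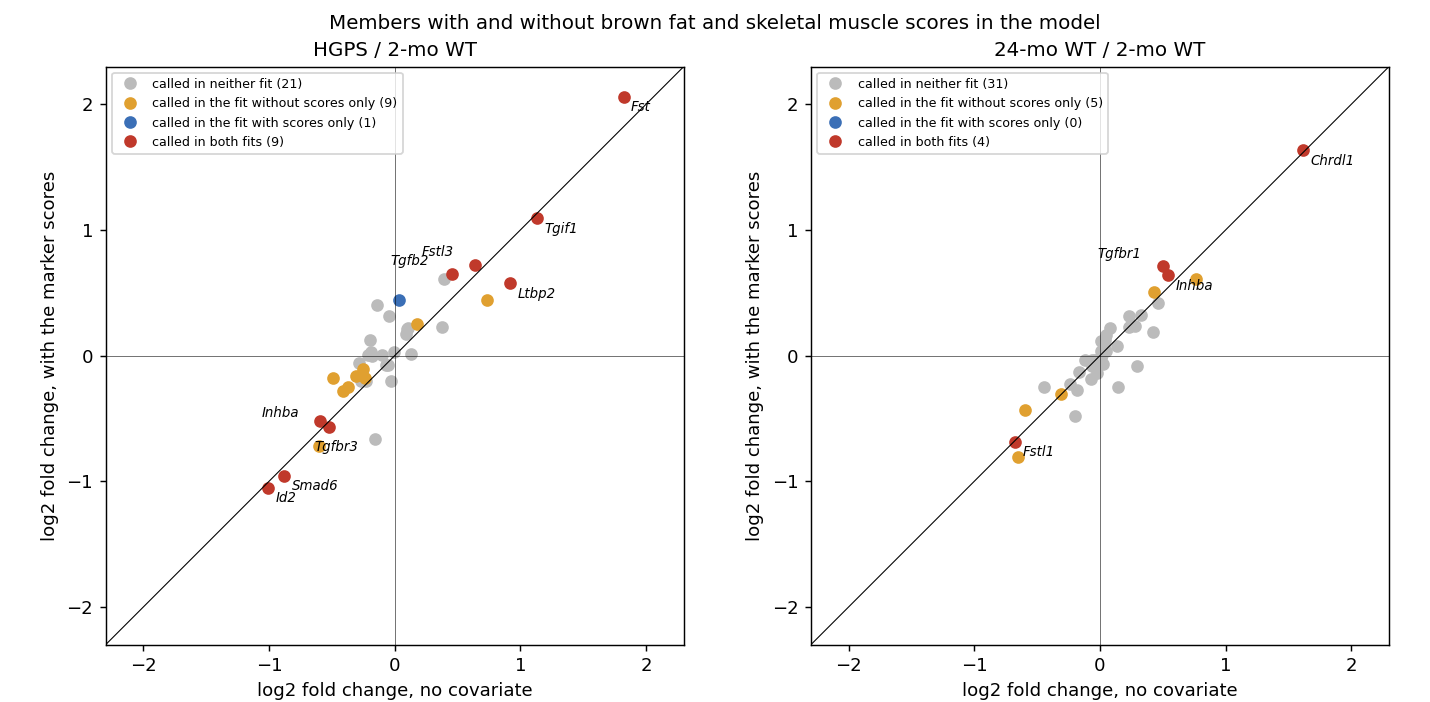
Log2 fold change of the 40 tested members in the fit without covariates (x axis) and with scores of brown fat and skeletal muscle markers in the model (y axis), for HGPS against 2-mo WT (left) and 24-mo WT against 2-mo WT (right); the line marks equal values. Members called in both fits are red and named, 9 on the left and 4 on the right, and those called only without the scores, 9 and 5, are orange and lie nearer to 0 than Fst, Tgif1, Id2 or Chrdl1.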

How the data were processed

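Aortic RNA of 18 mice was analysed, 6 in each of 3 groups taken from the sample labels. The authors prepared stranded, ribosomal RNA-depleted libraries, used salmon to quantify the transcripts of GENCODE M23 (GRCm38.p6), and combined these into gene values with tximport. The deposited estimated counts are whole numbers without normalization, and whether they were rounded is not given in the sources used here. The submitters' processing notes also name Bowtie 0.12.2, without its role.

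A gene entered the test with 10 or more counts in 6 or more mice (15210 genes). One model of the 3 groups was fitted in R 4.3.3 by edgeR 4.0.16, using TMM scaling, glmQLFit, glmQLFTest and Benjamini-Hochberg adjustment. SE stands for the standard error, obtained as |log2 fold change| over the root of F. Exon lengths and symbols came from GENCODE M21 (54107 of 54281 identifiers found), and promoter windows from RefSeq. Marker scores average log2 CPM (prior count 2) over a list. Members, lists and tests were chosen with earlier results of these data known. Members called with at least a 1.5-fold change in some comparison are given in full, and at most 6 other genes past the stricter cut-offs (1.5-fold, adjusted p under 0.001) are named per comparison, except for 1 gene that is not reported here.

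Alternatives were DESeq2 1.42.0, other scaling and filters, the replicate number as a block, pairs of groups alone, marker scores, the stricter cut-offs and each mouse left out. On simulated counts of HGPS against 2-mo WT, the fit called 78.5% of 200 changed genes among 14978. No mice of a group agreed within sampling noise (lowest chi-square per degree of freedom 8.09 over 45 pairs). Counting error is one source of error at low levels such as those of Acvr2b or Gdf15.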

Additional observations from a re-analysis of the deposited data

Results flagged for a closer look

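In 10 of the 120 groups of 6 mice examined over the tested members, 1 mouse lay apart from the other 5 by more than Dixon's critical gap for 6 values, and chance alone sets 1 mouse apart in about 1 of 20 such groups. Among 2-mo WT mice these were Bmp6 in mouse 2, at 31.6 CPM where the nearest mouse had 80.5, and Acvr1b in mouse 4, at 40.0 against 33.5 CPM. Among HGPS mice, mouse 4 had 61.0 CPM of Bmp4 (nearest 46.3) and 51.4 CPM of Acvr2a (nearest 43.9), mouse 6 had 15.3 CPM of Bmp2 (nearest 11.6) and mouse 3 had 10.9 CPM of Inhbb (nearest 9.31). Among 24-mo WT mice, mouse 1 had 246 CPM of Tgfb3 (nearest 281) and 248 CPM of Ltbp3 (nearest 133), and mouse 2 had 63.5 CPM of Smad7 (nearest 44.7) and 75.8 CPM of Id1 (nearest 46.2). Of these, Bmp4, Inhbb and Smad7 are among the members called with at least a 1.5-fold change in some comparison. The others called at that size, Fst, Fstl3, Tgif1, Chrdl1, Fstl1, Inhba, Id2, Smad6, Ltbp2, Tgfb1, Acvr2b and Bambi, had no such mouse.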

How the results depend on the processing

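The number of members called moved by more than 1.5 times under 3 settings. At the stricter cut-offs it was 7 between HGPS and 2-mo WT, 2 between the WT ages and 9 between HGPS and 24-mo WT, instead of 18, 9 and 20. With brown fat and skeletal muscle scores as covariates it was 10, 4 and 12, and without the 4 HGPS mice of high brown fat score it was 10 between HGPS and 2-mo WT and 12 between HGPS and 24-mo WT. Leaving out 1 mouse at a time gave 17 to 20, 6 to 10 and 19 to 22 called members. Of the 47 calls of members, 39 held without each mouse in turn. DESeq2 called 19, 10 and 21 members. No call reversed its direction in the 1593 recomputed values of the 27 members called in some comparison. The share of all tested genes called was taken from the main fit only, not from the alternatives. Whether these counts moved more than those of all genes was therefore not tested. The cause of the lower counts with the scores was not tested.

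The replicate numbers of the labels name different animals. Deviations of same-numbered mice from their group means correlated between -0.134 and 0.159, so the numbers did not pair the samples. With the replicate number as a block, 21, 8 and 20 members were called. The Bmp4 call with age (-0.58, adjusted p = 0.0917) and the Inhbb call between HGPS and 24-mo WT (-0.36, adjusted p = 0.0544) were then lost, and Bmp2 (0.42), Inhbb (0.41) and Smad1 (-0.22) were called between HGPS and 2-mo WT and Bambi (0.40) between HGPS and 24-mo WT. Whole-vessel RNA and 6 mice a group limit what small changes, such as those of the receptors, can show.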
